A study of Mus musculus with 123 samples.

Results

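The regions described here are the 388 chromatin accessibility peaks that start within 250 kb of the start coordinate of 8 immediate early genes in mouse cerebral cortex. That coordinate is the lower end of the gene's span. For Arc, on the minus strand, it is 74669081, while the 5′ end is at 74672570. For Nr4a1 it is 101253902, while the 5′ end used is at 101266846. Promoter peaks and distances below refer to the 5′ ends. They make up 0.297% of the 130727 peaks listed for the whole study. They were chosen by position alone, in the mm10 genome build: 73 lie around Arc, 62 around Nr4a1, 53 around Egr3, 47 around Dusp5, 46 around Fos, 42 around Egr1, 33 around Nr4a3 and 32 around Fosl2. No measured value entered the choice of peaks, but the 8 genes are known to respond to wakefulness and their RNA had been seen to rise in these samples.

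The study followed cortex by RNA-seq and by ATAC-seq, in which a transposase cuts open chromatin and the cuts are counted in each peak. The animals were male C57BL/6J mice, 11 to 12 weeks old when they entered the experiment, kept in a light-dark cycle. One cohort was kept awake by gentle handling for the first 6 h of the light phase, from zeitgeber time 0 (ZT0, light onset) to ZT6, and the other slept freely. Each frozen cortex was split between both assays.

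The controls were killed at ZT0 (8 ATAC-seq libraries), ZT3 (3), ZT6 (5), ZT12 (5) and ZT18 (4 in ATAC-seq, 5 in RNA-seq). Deprived mice are named by the hours since the control day began: T27 after 3 h of deprivation, T30 at its end after 6 h, and T36, T42, T48, T54, T60, T66, T72, T78, T192 and T198 afterwards. Each deprived group had 3 libraries per assay, except T66 with 1 ATAC-seq library. Each was compared with the controls of its own time of day. T60, T66, T192 and T198 were all in the second of 2 labelled batches, the other deprived groups and ZT3 were all in the first, and the remaining control groups held both. Labels of T36 place it during deprivation, whereas by the stated schedule it falls 6 h after the end, which is the reading used here. Reads in peaks ran from 2.21M to 11.9M per ATAC-seq library. In the RNA, all 5 markers of excitatory cortical neurons, all 5 of inhibitory neurons and all 5 of astrocytes were measured, while the sum of the 2 choroid plexus markers detected ranged from 1.99 to 7.58 on the log2 scale across libraries. Both assays used whole cortex, so fewer cells of a type and less RNA, or less open chromatin, per cell cannot be told apart.

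Immediate early genes are transcribed within minutes of neuronal activity without new protein synthesis, because the factors that bind their promoters, such as SRF and CREB, are already in the nucleus. Calcium and kinase signals switch these factors on, and distal enhancers add to the response. Fos and Fosl2 encode members of the AP-1 family of transcription factors, Egr1 and Egr3 encode zinc finger transcription factors, and Nr4a1 and Nr4a3 encode orphan nuclear receptors. Arc encodes a protein of the dendrite and synapse that takes part in removing AMPA receptors, and Dusp5 a nuclear phosphatase that acts on ERK.

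The Fos, Nr4a1 and Dusp5 promoters are printed to show the stretches that the promoter peaks cover. Each is the 250 bases before the transcription start, from RefSeq on GRCm38.p6, plus strand, and each lies wholly inside its gene's promoter peak. Capitals mark matches, on either strand, to the SRE (CArG box, the site of SRF), the CRE (TGACGTCA) and its core, here called the short CRE (TGACG), the AP-1 site (TGANTCA), the EGR site (GCGNGGGCG), the E-box (CACGTG), the Sp1 site (GGGCGG) or the TATA box (TATAAA). Overlapping matches merge, since the EGR site can contain an Sp1 site and the CRE contains the short CRE.
Fos promoter, chr12:85473640-85473889: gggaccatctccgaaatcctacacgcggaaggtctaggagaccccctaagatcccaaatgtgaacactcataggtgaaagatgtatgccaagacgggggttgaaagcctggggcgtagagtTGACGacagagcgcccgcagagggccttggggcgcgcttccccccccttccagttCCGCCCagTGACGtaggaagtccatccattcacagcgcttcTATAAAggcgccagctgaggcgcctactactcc
Nr4a1 promoter, chr15:101266596-101266845: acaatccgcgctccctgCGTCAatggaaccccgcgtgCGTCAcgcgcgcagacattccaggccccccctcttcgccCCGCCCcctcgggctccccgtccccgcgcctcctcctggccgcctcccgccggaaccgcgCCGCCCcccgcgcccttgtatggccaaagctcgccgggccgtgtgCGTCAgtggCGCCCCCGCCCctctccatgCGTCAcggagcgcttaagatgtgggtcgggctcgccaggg
Dusp5 promoter, chr19:53528895-53529144: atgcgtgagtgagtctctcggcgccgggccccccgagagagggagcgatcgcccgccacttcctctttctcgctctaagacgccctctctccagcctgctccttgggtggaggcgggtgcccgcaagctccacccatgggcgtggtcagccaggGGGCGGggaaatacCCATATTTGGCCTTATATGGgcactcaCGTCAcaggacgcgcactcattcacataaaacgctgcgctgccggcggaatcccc

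The Dusp5 promoter holds 2 adjoining SRE matches, 82 to 73 and 72 to 63 bases before the start, and an SRE match occurs in 1.47% of the 32851 mouse start windows of the same length. The Dusp5 window also has a short CRE and an Sp1 site. That of Fos has 2 short CREs, an Sp1 site and a TATA box, and that of Nr4a1 has 4 short CREs, Sp1 sites and an EGR site. Bases farther from the start, which the promoter peaks also cover, were not searched, so an SRE there would not be seen. Of all start windows, 17.8% hold a short CRE, 12.4% a TATA box, 32.7% an Sp1 site, 6.75% an AP-1 site, 6.02% an E-box, 4.70% an EGR site and 1.55% a full CRE. None of the printed windows holds a full CRE, an AP-1 site or an E-box in these letters. G and C make up 58.4% of the Fos window, 74.4% of that of Nr4a1 and 64.0% of that of Dusp5, beside a median of 52.4% over all windows.

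Every gene had a promoter peak with signal in the control libraries. Promoter peaks overlapped the window of 1 kb around the 5′ end and were long and strong, at the 90.9th to 99.7th percentile of mean signal in 7 of the 8 genes. Signal here is the deposited normalised read count of a peak. Egr1 had the highest promoter peak (chr18:34859715-34861423), with a mean signal of 68.9 over all libraries, or 40.3 per kb of peak. Per kb of peak, Nr4a3 (chr4:48044521-48045623) followed at 31.5, Fosl2 (chr5:32135067-32136142) at 27.4, Arc (chr15:74672329-74672992) at 27.0 and Nr4a1 (chr15:101266163-101267195) at 23.7. Egr3 (chr14:70076733-70077014) had 20.4 per kb, Fos (chr12:85473336-85474863) 19.7 and Dusp5 (chr19:53528295-53529543) 13.1. The Egr3 peak was short, at 282 bases, and of moderate total signal (5.75, the 61.3rd percentile). A stronger peak, with a mean signal of 30.4, lay centred 2.1 kb upstream of the Egr3 start. Within groups the SD of the log2 signal ran from 0.19 at Egr1, Fos and Nr4a3 to 0.31 at Egr3. Neighbours in this order such as Fosl2 and Arc, or Egr3 and Fos, lay closer together than this spread.

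RNA of all 8 genes rose during deprivation, while no promoter peak changed past the test. RNA values are the deposited log2 levels, and changes come from limma with an adjusted p under 0.05 as the call. At T27 all 8 genes were higher than at ZT3, by 0.93 (Egr3) to 2.10 (Arc) on the log2 scale, against 8.21% of the 13842 genes measured. At T30 all 8 were higher than at ZT6, by 1.21 (Egr3) to 3.28 (Arc), against 16.0% of genes. Arc read 8.21, 8.54 and 8.55 at T30, and 4.09, 4.51, 5.13, 5.74 and 6.45 at ZT6. The 3 deprived animals lay above all 5 controls, with a change of 3.28 ± 0.66 (SE, n = 3 and 5, adjusted p = 0.000119). Fos read 5.93, 6.02 and 6.36 at T30 and 2.48, 2.76, 3.68, 3.74 and 4.67 at ZT6, again without overlap, a change of 2.67 ± 0.53 (adjusted p = 0.000110). Nr4a1 rose by 1.97 ± 0.35, Dusp5 by 1.45 ± 0.24, Egr1 by 1.42 ± 0.29, Nr4a3 by 1.34 ± 0.26 and Fosl2 by 1.28 ± 0.17.

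At T27 the calls of Arc, Fos and Nr4a1 rested on single animals. The call of Arc was lost without ZT3 animal 2 or 4 or any 1 of the T27 animals (adjusted p between 0.0683 and 0.152), and those of Fos and Nr4a1 without ZT3 animal 2 or 4, or T27 animal 3 or 5 (adjusted p between 0.0667 and 0.145). The summed choroid plexus markers were higher in all 3 ZT3 libraries (3.41 to 7.58 on the log2 scale) than in the T27 libraries (2.51 to 2.95), highest in ZT3 animal 2. The part of this in the results was not tested.

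Promoter accessibility at T30 is given animal by animal for Arc, Fos and Nr4a1, which had the largest RNA changes, and for Egr1 and Egr3. The Arc promoter peak had a signal of 14.3, 16.4 and 16.5 at T30 and of 14.9, 16.8, 17.2, 17.8 and 25.9 at ZT6. The groups overlapped, and the difference was -0.23 on the log2 scale with a 95% interval from -0.58 to 0.12 (adjusted p = 0.570). The Fos promoter peak had 27.4, 33.0 and 33.9 at T30 and 27.1, 31.1, 31.3, 32.7 and 34.3 at ZT6, a difference of -0.0030 with an interval from -0.29 to 0.29. For Egr1 the values were 71.1, 72.9 and 75.4 against 64.9, 65.8, 72.4, 74.3 and 91.4, so that the T30 animals sat within the range of the controls. Nr4a1 had 24.6, 27.9 and 29.8 at T30 against 20.5, 22.0, 23.5, 27.0 and 28.1. Its difference, 0.16 with an interval from -0.16 to 0.49, was the highest of the 8 at this time. Egr3 had the lowest, with 3.22, 4.06 and 5.34 at T30 against 4.88, 5.07, 5.54, 6.38 and 9.36, a difference of -0.46 with an interval from -0.93 to 0.0033.

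**Figure D1:**
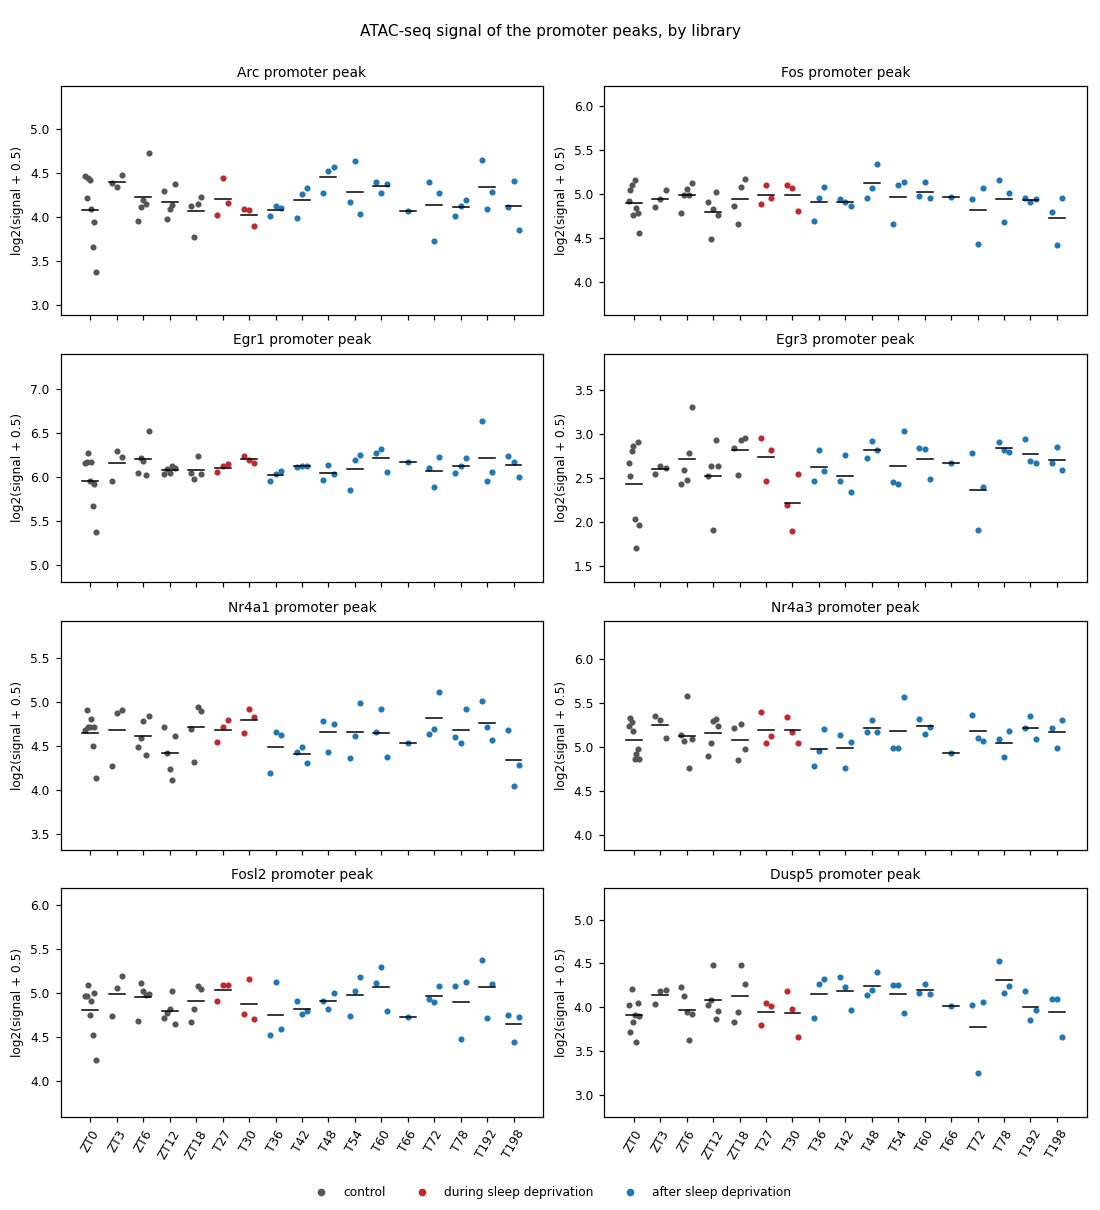
ATAC-seq signal of each gene's promoter peak, as log2(signal + 0.5), in every library (points) and as the group mean (lines), for the 5 control groups and the 12 deprived groups. Every panel spans the same log2 range. The T27 and T30 points lie within the spread of the controls in most panels, and the Egr3 peak has its lowest group mean at T30.

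The intervals limit how large a rise at the 8 promoter peaks these libraries could have hidden. Over these peaks the upper 95% limit was at most 1.57-fold at T27, 1.41-fold at T30 and 1.52-fold at T36. The estimates ran from -0.19 to 0.15 on the log2 scale at T27, from -0.46 to 0.16 at T30 and from -0.16 to 0.14 at T36. By limma none of the 24 comparisons was called, none had an unadjusted p under 0.05, and edgeR on recovered reads called 0. Of all peaks 0.689%, 2.60% and 0.618% were called by limma at these times. A weaker peak over the Fosl2 start itself (mean signal 2.89) was not among the promoter peaks. It changed by 0.26 at T27, -0.064 at T30 and 0.31 at T36, with upper 95% limits of 0.97, 0.58 and 0.96 on the log2 scale. None of these was called, and a larger rise could have been hidden there than at the 8 promoter peaks. The 95% intervals of the RNA change and of the promoter change did not overlap for 7 of 8 genes at T27, all but Egr3, and for 8 of 8 at T30. The assays have different scales, so this sets the values side by side without a test of their difference. At T36, 6 h after deprivation ended, 2 of the 8 genes were still higher in RNA, against 7.46% of all genes: Egr3 by 1.11 ± 0.18 (adjusted p = 1.58e-05) and Fosl2 by 0.74 ± 0.17 (adjusted p = 0.00251).

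**Figure D2:**
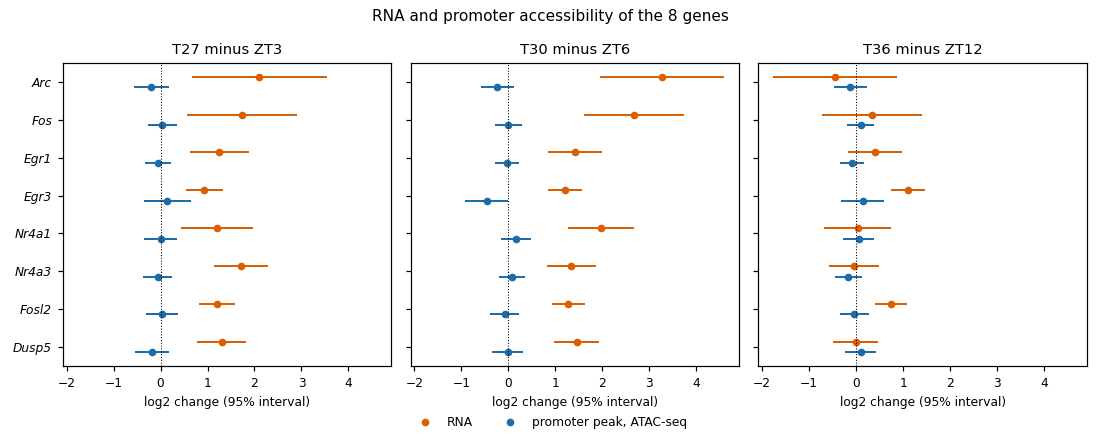
Log2 change of RNA (orange) and of promoter peak accessibility (blue) for the 8 genes against the controls of the same time of day, with 95% intervals, at T27, T30 and T36. RNA intervals lie above 0 for all 8 genes at T27 and T30, and every promoter interval includes 0.

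Promoters of other immediate early genes were also without calls. Of a list of 32, 22 had a 5′ end in the tables used and 21 had a promoter peak. By limma 0 of the 21 promoter peaks were called at T27, T30 or T36, with changes from -0.31 to 0.14 at T27 and from -0.24 to 0.31 at T30. Of all peaks 0.689%, 2.60% and 0.618% were called at these times, so 0 of 21 does not set these promoters apart. At an unadjusted p under 0.05 there was 1 of the 21 at T27, and there were 0 at T30 and 0 at T36. RNA was measured for 19 of the 21. At T27 13 of them rose and 1 fell (Jun, an AP-1 partner of Fos, by 0.45), where 8.21% of all genes rose and 7.37% fell. At T30 17 rose, among them Egr2 by 2.85, Junb by 1.85 and Fosb by 1.70, where 16.0% of all genes rose. At T36 6 rose, where 7.46% of all genes did.

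No relation between promoter accessibility and RNA across animals passed the test. Over 58 animals with both assays, after each group's mean and the batch were removed, Pearson's r between promoter peak signal and RNA lay between -0.084 and 0.11 for the 8 genes and Spearman's rho between -0.11 and 0.12. No gene of the 8 passed (permutation test, 100000 resamples, two-sided, adjusted p at least 0.876 for r and 0.966 for rho). Without the 2 animals farthest from the median of each promoter's signal, r lay between -0.12 and 0.11. Within batch 1 (40 animals) r lay between -0.056 and 0.25, and within batch 2 (17 animals) between -0.66 and 0.054, with the lowest at Egr3 (adjusted permutation p = 0.211).

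Peaks close to the genes gave a single call. Within 10 kb of the 5′ ends lay 33 peaks, of which 10 were within 1 kb. None of the 33 was called by limma at T27 or T36 and 1 at T30, beside 0, 2 and 4 at an unadjusted p under 0.05 at T27, T36 and T30. Of all peaks, limma called 0.689%, 0.618% and 2.60% at T27, T36 and T30. Counts this small among 33 peaks do not set them apart from peaks elsewhere. The Arc gene has a known synaptic activity-responsive element several kilobases upstream in mouse. Of the Arc peaks upstream by more than 1 kb and within 10 kb, all 3 missed the test at T30: the one centred 6.6 kb upstream changed by 0.15 (95% interval -0.23 to 0.53), the one at 5.0 kb by 0.39 (-0.088 to 0.86) and the one at 4.5 kb by 0.47 (-0.13 to 1.07). A peak 4.7 kb downstream of the Arc start had 0.81 ± 0.25 (SE) and an adjusted p of 0.0558, and the next peak, 6.7 kb downstream, had -0.74 ± 0.26 at T30 (adjusted p = 0.116) and -0.68 ± 0.26 at T36 (adjusted p = 0.234). Fos is known for enhancers on both sides of the gene. The 10 peaks within 50 kb of Fos changed by -0.32 to 0.44 at T30 and none was called at T27, T30 or T36, with the smallest adjusted p at 0.353.

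The single call near a gene was a loss at Egr1. The peak centred 5.8 kb upstream (chr18:34855042-34855865) had a signal of 15.3, 15.9 and 17.2 at T30 and of 17.1, 23.7, 26.9, 27.2 and 28.9 at ZT6. It fell by 0.52 on the log2 scale (SE 0.16, adjusted p = 0.0480), though the highest T30 animal overlapped the lowest control. The call held in 6 of 16 alternative fits, was lost under edgeR (adjusted p = 0.0818), and was lost without ZT6 animal J2, 3 or 4 or any 1 of the T30 animals (adjusted p between 0.0694 and 0.188).

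Across all 388 peaks, the shares called were close to or below those of all peaks. At T27 2 were higher and 0 lower, which is 0.515% beside 0.689% of all peaks (0.658% higher and 0.0314% lower). At T30 4 were higher and 2 lower, which is 1.55% beside 2.60% of all peaks (2.18% higher and 0.427% lower). At T36 1 was higher and 1 lower, 0.515% beside 0.618% (0.261% higher and 0.357% lower). By edgeR the counts were 3, 8 and 2. At an unadjusted p under 0.05 the shares were 9.79%, 15.5% and 12.1% of the 388 and 11.1%, 15.1% and 12.3% of all peaks. The median log2 change of the 388 was -0.040 at T27, -0.085 at T30 and 0.11 at T36, beside -0.013, -0.020 and 0.0035 over all peaks. Of the 388, 40.2% lay above 0 at T30 and 64.2% at T36, beside 47.4% and 50.5% of all peaks. Shares as far or farther from those of all peaks occurred where no member was called: 67.3% at T60, 66.8% at T66, 69.8% at T192 and 33.5% at T54, beside 50.8% to 51.7% of all peaks, and 40.2% between the undisturbed ZT18 and ZT6 groups, beside 49.4%.

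The median change at T36 was above 0 around 7 of the 8 genes. It was highest around Fos (0.22), Arc (0.17), Fosl2 (0.16) and Nr4a1 (0.15), and negative around Nr4a3 (-0.12). At T30 the medians ran from -0.15 around Nr4a1 to 0.054 around Dusp5. Library by library, the median deviation of the 388 peaks from their own means, less that of all peaks, lay between 0.0092 and 0.065 in the 3 T36 libraries and between -0.10 and 0.017 in the 5 ZT12 libraries, so the groups overlapped. The overlapping ZT12 library is in batch 2, and the 3 ZT12 libraries of batch 1, the batch of all T36 libraries, lay between -0.10 and -0.048, below every T36 library. The same measure ran from -0.21 to 0.099 over the 8 ZT0 libraries.

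**Figure D3:**
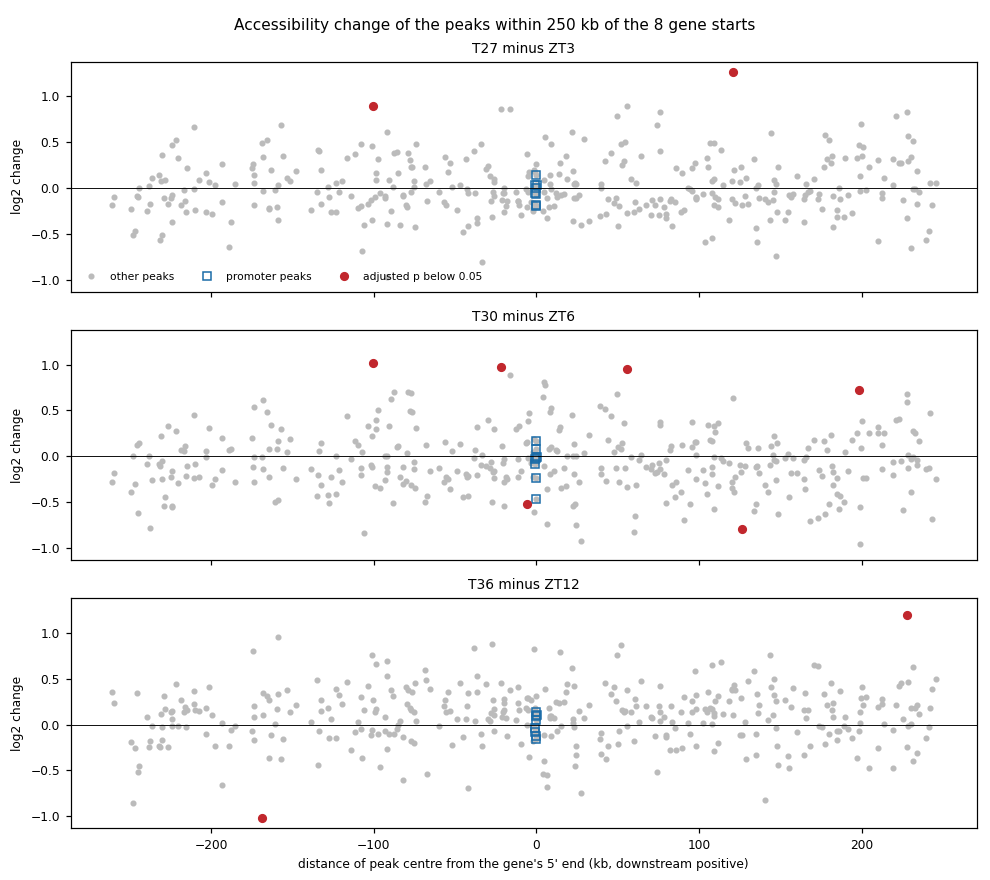
Log2 change in accessibility of the 388 peaks against the distance of the peak's centre from the gene's 5′ end in kb, with downstream positive, at T27, T30 and T36. Red points passed an adjusted p of 0.05 and blue squares are the 8 promoter peaks. Called peaks lie away from the genes, apart from the Egr1 peak at T30.

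The called gains lay 21.5 to 227.9 kb from the genes. The peak centred 100.5 kb upstream of Fosl2 (chr5:32035660-32036290) lies within the span of Babam2, which encodes a subunit of BRCA1-containing and deubiquitinase complexes. Its signal was 8.11, 9.82 and 13.6 at T27 and 4.82, 5.13 and 5.99 at ZT3, and 7.83, 10.2 and 13.1 at T30 and 4.61, 4.79, 4.99, 5.17 and 5.35 at ZT6. Every deprived animal stood above every control of its time, which was a condition for naming this peak. The rise was 0.89 ± 0.22 (SE) at T27 (adjusted p = 0.0274) and 1.01 ± 0.21 at T30 (adjusted p = 0.00114), which is 1.86-fold and 2.02-fold. At T30 all 16 alternative fits kept the call. At T27 it was lost without ZT3 animal 2 or 4 or T27 animal 3 or 5 (adjusted p between 0.116 and 0.287). At T36 its change was 0.27, with a 95% interval from -0.14 to 0.67. At T192 it ran from 8.21 to 9.58, above the 8 ZT0 controls (5.86 to 7.85), a difference of 0.26 that was not called.

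The peak 21.5 kb upstream of Dusp5 (chr19:53507348-53507941) lies outside the protein-coding spans in the gene table used. It had 8.25, 8.31 and 10.7 at T30 against 3.12, 3.30, 4.44, 5.09 and 6.00 at ZT6, without overlap, again a condition for naming it. It rose by 0.98 ± 0.22 (adjusted p = 0.00409) and kept the call in 15 of 16 alternative fits, all but that without T30 animal 1 (adjusted p = 0.0696). At T27 it had 9.38, 10.4 and 13.1 against 4.89, 6.09 and 6.29 at ZT3, a change of 0.87 ± 0.24 that missed the threshold (adjusted p = 0.0567). At T192 the 3 libraries of this peak, 8.62 to 10.3 and all in batch 2, lay above the 8 ZT0 controls of both batches (5.34 to 7.93). The difference, 0.44, was not called (limma, unadjusted p = 0.0356). At T198, the other group of that day, its mean was 5.27, beside 4.39 in the ZT6 controls.

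The peak 120.8 kb downstream of the Fos start (chr12:85594391-85594913), also outside protein-coding spans, showed the largest change called among the 388 peaks at T27. Its signal was 7.25, 8.11 and 11.3 at T27 and 2.93, 3.55 and 3.60 at ZT3, a rise of 1.26 ± 0.24 or 2.40-fold (adjusted p = 0.00235). The call was lost without T27 animal 3 (adjusted p = 0.0691). At T30 it had 5.80, 9.12 and 11.2 against 3.69, 4.45, 5.24, 6.10 and 6.69 at ZT6, and the groups overlapped (0.64 ± 0.22, adjusted p = 0.104). In controls this peak was also called for time of day, with its lowest mean at ZT3, as given below.

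A further pair of gains was called at T30 and held less well. The peak 198.6 kb downstream of Arc (chr15:74473614-74474415) had 10.4, 10.7 and 14.8 against 6.23, 6.75, 7.21, 8.03 and 8.08, a rise of 0.72 ± 0.21 (adjusted p = 0.0423) that kept its call in 7 of 16 alternative fits and lost it without any 1 of the 5 ZT6 or 3 T30 animals (adjusted p between 0.0512 and 0.286). The peak 55.8 kb downstream of Fosl2 (chr5:32191791-32192673) had 7.77, 7.83 and 8.31 against 3.05, 3.30, 3.69, 4.79 and 5.35, a rise of 0.96 ± 0.27 (adjusted p = 0.0324). It kept its call in 9 of 16 and lost it without ZT6 animal J1, 2 or 3 or any 1 of the T30 animals (adjusted p between 0.0559 and 0.112). This peak, the Egr1 peak 5.8 kb upstream and a Fos peak named below were chosen after their values were seen.

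One loss at T30 held in all 16 alternative fits. The peak 126.5 kb downstream of Egr3 (chr14:70203334-70204212) lies within the span of Sorbs3, which encodes the adaptor protein vinexin. It had 7.51, 9.57 and 10.4 at T30 and 13.4, 14.9, 15.4, 16.1 and 18.7 at ZT6, without overlap, a condition for naming it. It fell by 0.79 on the log2 scale (SE 0.17, adjusted p = 0.00268). At T27 and T36 its differences were -0.18 and -0.12, and neither passed.

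The 2 peaks called at T36 were not called at T27 or T30. The peak 227.9 kb downstream of Egr1 (chr18:35088809-35089313) had 4.73, 5.17 and 6.84 at T36 and 1.05, 1.55, 1.99, 3.03 and 3.32 at ZT12, a rise of 1.20 ± 0.28 or 2.30-fold (adjusted p = 0.0203). With batch 1 libraries alone the change was 0.90 and the call was lost (adjusted p = 0.165), as it was without ZT12 animal 4 or T36 animal 1 or 2 (adjusted p between 0.0510 and 0.150). Its mean signal was as high at T27 (6.16, beside 3.46 at ZT3) and T30 (5.89, beside 3.67 at ZT6) as at T36 (5.58), with changes of 0.83 (adjusted p = 0.214) and 0.59 (adjusted p = 0.285), and the mean at ZT12 (2.19) was the lowest of the 5 control groups. The peak 168.6 kb upstream of Dusp5 (chr19:53360117-53360890), within the span of Mxi1, which encodes a MAX partner that opposes MYC, had 3.34, 4.28 and 6.60 at T36 against 7.35, 8.75, 8.80, 9.22 and 13.5 at ZT12. It fell by 1.01 on the log2 scale (SE 0.20, adjusted p = 0.00461), and the call was lost only without T36 animal 1 (adjusted p = 0.0963). The same Mxi1 peak had a higher mean at T27 than at ZT3 (0.49, adjusted p = 0.357).

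**Figure D4:**
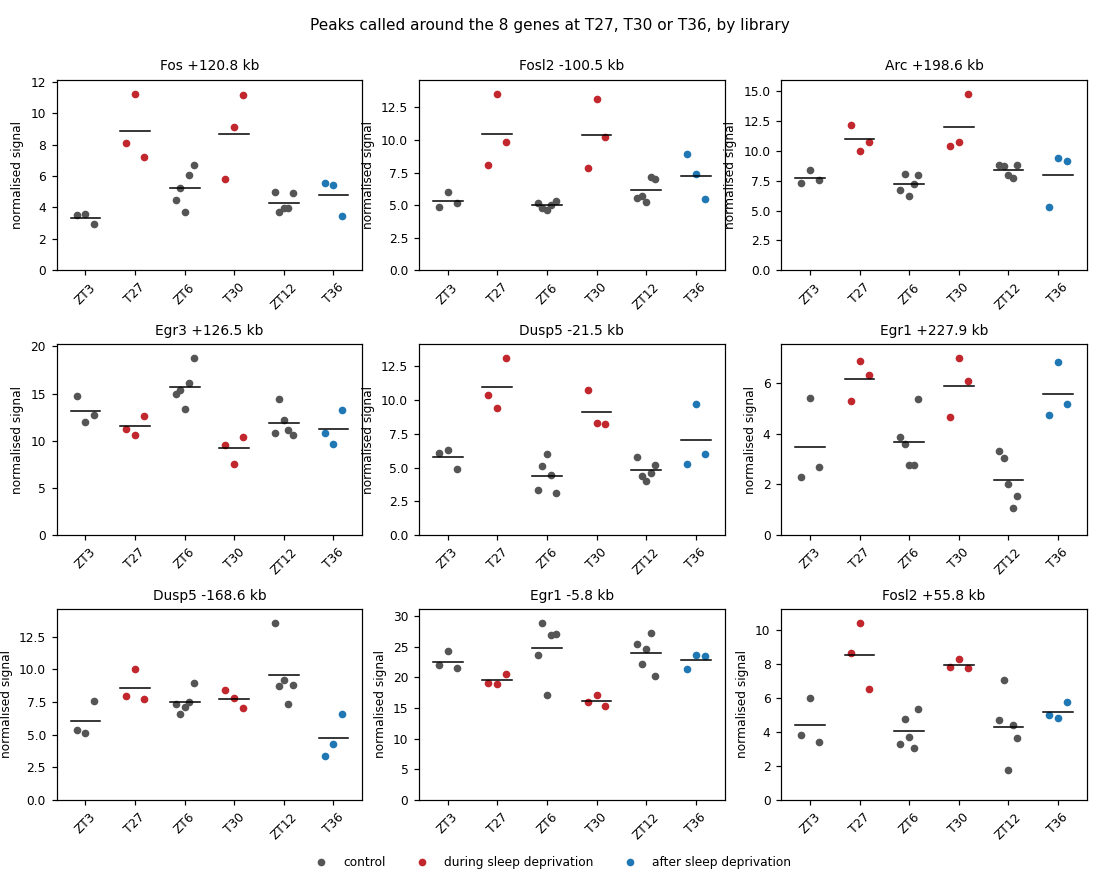
Normalised signal by library (points) and group mean (lines) of the 9 peaks called at T27, T30 or T36, each named by its gene and the distance of its centre from the 5′ end in kb, with downstream positive. The Fosl2 peak 100.5 kb upstream and the Dusp5 peak 21.5 kb upstream are higher in all T27 and T30 animals than in any ZT3 and ZT6 animal, respectively, and the Egr3 peak 126.5 kb downstream is low at T30. For these peaks, groups without overlap at the time of a call were a condition of naming.

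Whether the deprivation effect itself differed between times was tested on the same peaks. Between T27 and T30 limma called 0 of the 388 (13 at an unadjusted p under 0.05, 0 by edgeR), as it did for 0% of all peaks. Between T30 and T36 it called 0 of the 388 (53 at an unadjusted p under 0.05, 0 by edgeR), beside 0.352% of all peaks. Leaving out T36 animal 4 or T30 animal 3 gave 1 call each.

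From T42 on, no difference from controls was called at any of the 388 peaks. Over the 9 later comparisons, limma called 0 of the 388 in each, beside 0.000170% of all peak tests, with 1 to 23 peaks at an unadjusted p under 0.05 per comparison and 0 by edgeR. The medians of the 388 peaks ran from -0.091 at T54 to 0.11 at T66, which rests on 1 library. The promoter peaks changed by -0.32 to 0.44 with a smallest adjusted p of 0.752, and 5 of these 72 tests had an unadjusted p under 0.05. RNA of the 8 genes gave 0 calls in these comparisons, where 0.270% of all gene tests were called. For T60, T66, T192 and T198 the deprived animals are all in batch 2. Within batch 2 alone 0 of the 388 peaks were called at T60, T192 or T198. That fit drops the batch 1 controls, which are 4 of 8 at ZT0 and 3 of 5 at both ZT6 and ZT12. With so few controls left, a lack of calls says little. T66, with 1 library, is left out of this count.

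In controls 3 of the 388 peaks varied with time of day, 0.773% beside 1.39% of all peaks (limma F-test over ZT0, ZT3, ZT6, ZT12 and ZT18). The Fos peak 120.8 kb downstream was lowest at ZT3 and highest at ZT0, a range of 0.97 on the log2 scale (adjusted p = 0.00904). At ZT0 its signal ran from 4.80 to 8.54 with a median of 7.55. A second Fos peak, 182.5 kb downstream (chr12:85656001-85656756), was lowest at ZT0 and highest at ZT6, with a range of 0.86 (adjusted p = 0.0126). The Arc peak 111.4 kb downstream (chr15:74560896-74561410), within the span of Adgrb1, which encodes an adhesion receptor of the synapse and of phagocytes, had the same order of extremes and a range of 0.83 (adjusted p = 0.0135). Batch 1 controls alone gave 0 calls, and leaving out ZT6 animal J1, ZT12 animal 1 or ZT18 animal 3 gave 5 calls.

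No promoter peak varied with time of day past the test (adjusted p from 0.569 at Egr1 to 0.865 at Nr4a3), and the range of the control means was 0.18 (Nr4a3) to 0.38 (Egr3) on the log2 scale. In the dark phase at ZT18 compared with ZT6, RNA of 6 of the 8 genes was higher, against 15.4% of all genes. Among them Egr1 was higher by 1.02 ± 0.24 and Egr3 by 0.74 ± 0.15, while Arc (1.28 ± 0.55, adjusted p = 0.0738) and Dusp5 (0.22 ± 0.20) missed the threshold. None of the 388 peaks was called between these times by limma, beside 0% of all peaks, with 24 at an unadjusted p under 0.05 and 0 by edgeR.

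The RNA changes called for the neighbouring genes listed were smaller than those called for the 8 genes. Other genes with a listed 5′ end in the windows and RNA values numbered 17, all around Fos, Nr4a1, Nr4a3, Fosl2 and Dusp5. None was listed around Arc, Egr1 or Egr3. The tables used gave a 5′ end for 10254 of the 13842 genes with RNA values, so neighbours may be missing. At T27 3 rose and 5 fell, where 8.21% of all genes rose and 7.37% fell. At T30 3 rose and 2 fell, beside 16.0% and 15.6% of all genes. At T36 2 rose and 0 fell, beside 7.46% and 4.46%. Grasp, whose product scaffolds metabotropic glutamate receptors and which lies near Nr4a1, rose at all 3 times, by 0.66, 0.62 and 0.56. Jdp2, an AP-1 repressor beside Fos, rose by 0.29 at T27 and 0.41 at T30, and Atg101, an autophagy factor near Nr4a1, by 0.30 and 0.26. Acvr1b, an activin receptor near Nr4a1, fell by 0.19 and 0.25 at the same times, and Stx17, a SNARE protein of autophagosomes near Nr4a3, by 0.25 and 0.37. Nek9, Zc2hc1c and Fignl2 fell at T27 and Tmed10 rose at T36. Of the genes whose spans hold called peaks, Mxi1 missed the test at all 3 times. Babam2, Sorbs3 and Adgrb1 were not among the genes listed with a 5′ end in the windows, so their RNA was not examined here. Their absence reflects the tables used and does not place their starts outside the windows.

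The peaks around these genes resembled peaks elsewhere in form. Their median width was 573.5 bases beside 546 for all peaks, and their median of mean signal 5.44 beside 4.60. Of the 388, 31 lay within 500 bases of a 5′ end in the tables used and 210 within a protein-coding gene's span. Those tables lack the 5′ ends of many genes, with only 1 such peak each around Arc, Egr1 and Egr3, so 31 may be too low. Most, 288, lay 50 to 250 kb away, with 67 at 10 to 50 kb and 23 at 1 to 10 kb. Median signal fell with distance from 21.2 within 1 kb to 6.24, 5.67 and 5.21 in these bins.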

How the data were processed

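Whole cortex of each mouse gave RNA-seq and ATAC-seq libraries: 59 ATAC-seq and 62 RNA-seq libraries are used. Per the submitters' processing notes the tools named, without role or order, include HTSeq 0.6.1, MACS2 2.1.1, Bowtie2, bedtools 2.26.0, sleuth 0.29.0 and kallisto 0.43.0. The builds are GRCm38 and mm10. Which tool made which file is not stated. ATAC-seq values are signal deposited by the authors, that is read counts per peak scaled by library. For every library whole reads were recovered from the steps between values (100% of values whole within 0.02 reads), and 1 read was worth 0.0825 to 0.446 units. RNA values are log2 levels deposited by the authors for 13842 genes. One repeated ATAC-seq library was left out, and a repeated RNA library is merged in the authors' table.

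Peaks were fitted as log2(signal + 0.5) with limma 3.58.1 in R 4.3.3, with a mean per group and a batch term, over all 130727 peaks. p-values were adjusted by Benjamini-Hochberg over all peaks, and 0.05 was the threshold. RNA was fitted in the same way. edgeR 4.0.16 on recovered reads was an alternative. Samples are separate animals. Gene starts and strands come from RefSeq tables of GRCm38.p6, except the strand of Arc, Egr1 and Egr3, taken from general knowledge. Named peaks are each promoter peak, each locus' largest called gain and loss at T27, T30 and T36 whose libraries do not overlap, and each locus' widest called range over control times, the latter 2 kinds only with a mean signal above 3.06. Members and lists were chosen with earlier results of these data known. The fit was tested on simulated data with known changes, and mean fold changes were recovered. Most changed peaks missed the threshold at this number of animals, and fewer passed when the simulated noise was set higher. Far fewer peaks were changed there than were called at T30, and they were drawn from all but the weakest peaks. The share that passed therefore does not carry over to the strong promoter peaks. A peak that was not called may still have changed. Intervals cover the spread between animals.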

Additional observations from a re-analysis of the deposited data

Results flagged for a closer look

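Among the named peaks and the 8 genes' RNA, 108 groups of 4 to 8 animals were checked for a single animal far from the rest. Of these groups 2 were flagged. Chance alone flags about 1 group in 20, a larger share than this, so the 2 are given as a description only. At the Fosl2 peak 100.5 kb upstream, ZT18 animal 4 had a log2 signal of 3.22 while the other 3 ZT18 libraries lay between 2.67 and 2.74. At the Fos peak 182.5 kb downstream, ZT0 animal 9 had a log2 signal of 0.83 while the other 7 lay between 2.00 and 2.59.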

How the results depend on the processing

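Counts of called peaks moved with single animals. Leaving out each animal in turn gave 0 to 2 calls at T27 (2 in the full data), 2 to 6 at T30 (6), 0 to 3 at T36 (2), 3 to 5 for time of day (3) and 0 to 1 for the difference of effects (0). Batch 1 libraries alone gave 1 call at T36 and 0 for time of day. The replicate block, with animal number as a block beside the batch, gave 1 at T36 and 1 for time of day. The numbers did not pair the samples: of 209 same-numbered pairs 9 had residual correlations over 0.1, with a median of -0.0022. Promoter calls were 0 in every alternative run, as were calls at the 9 later times, between ZT18 and ZT6, and for the correlation of promoter and RNA. RNA calls of the 8 genes at T27, T30 and T36 numbered 15 to 18 (18).

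The promoter and RNA changes whose sign turned under an alternative all missed the threshold in the full data. At T30 the Fos promoter gave 0.0030 with no batch term, 0.0051 with median-of-ratios scaling, 0.0006 with both libraries of a repeated animal averaged and 0.0152 with edgeR, and Dusp5 gave 0.1031 in batch 1 and 0.0071 with the replicate block. At T27 the Egr1 promoter gave 0.0365 with the replicate block and Nr4a1 -0.0238 with edgeR. At T36 Dusp5 gave -0.0413 in batch 1 and with the replicate block. In RNA at T36, Nr4a3 gave 0.0010 and Dusp5 0.0143 under both of these. Leaving out single animals, the promoter changes ran from -0.0233 to 0.0870 (Fos, T27), -0.0599 to 0.0908 (Fos, T30), -0.1570 to 0.0164 (Egr1, T27), -0.0855 to 0.0622 (Egr1, T30), -0.0356 to 0.2164 (Egr3, T36), -0.2046 to 0.1168 (Nr4a1, T27), -0.0309 to 0.2026 (Nr4a1, T36), -0.1673 to 0.0129 (Nr4a3, T27), -0.0291 to 0.2143 (Nr4a3, T30), -0.0944 to 0.1369 (Fosl2, T27), -0.2210 to 0.0066 (Fosl2, T30), -0.2334 to 0.0682 (Fosl2, T36) and -0.1347 to 0.1278 (Dusp5, T30). RNA changes at T36 ran from -0.1267 to 0.1941 (Nr4a1), -0.2648 to 0.1959 (Nr4a3) and -0.1346 to 0.1652 (Dusp5). The cause was not tested. With 3 deprived animals per group, low peaks have wide intervals.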
